A study of Mus musculus with 28 samples.

Results

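Dexamethasone (Dex), a synthetic glucocorticoid, was compared with corticosterone (Cort), the main natural glucocorticoid of mice, by the histone mark each left in macrophages after the same 24 h. The mark was acetylation of histone H3 at lysine 27 (H3K27ac), read by chromatin immunoprecipitation and sequencing (ChIP-seq). The comparison used every H3K27ac library of the Dex and Cort groups, 6 of the 28 libraries of the series, with replicates 1 to 3 of Dex paired by number with replicates 1 to 3 of Cort. It covered the whole deposited H3K27ac peak table, in which 59881 of 63313 peaks had enough reads to be tested. The Dex cells received 100 nM and the Cort cells 500 nM, so compound and dose cannot be told apart in any difference between them. Beside them stood 3 vehicle libraries, which set the size of each response and whose titles give no treatment time, and 3 libraries of cells given interleukin 4 (IL4) at 10 ng/ml, which served here to estimate the spread. All groups were primary bone marrow-derived macrophages of C57BL/6 mice, prepared from males 8 to 10 weeks old and differentiated over 5 days with L-cell conditioned medium, a source of the macrophage growth factor CSF1. The labels do not say that replicates came from separate animals or cultures, so p-values measure the spread between these libraries, which may be technical.

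Glucocorticoids enter the cell and bind the glucocorticoid receptor (GR), a nuclear receptor that moves to the nucleus, binds enhancers and recruits coactivators, among them the acetyltransferases that deposit H3K27ac. In macrophages GR restrains inflammatory genes and raises genes of clearance, circadian timing and negative signalling. Dex is built on the same steroid frame as Cort, with a fluorine atom, a methyl group, a hydroxyl group and a ring double bond that Cort lacks, and it is known as the more potent ligand of GR. H3K27ac marks active promoters and enhancers. It was measured on chromatin of a whole culture, so a lower value from fewer cells with an active region cannot be told apart from less acetylation per cell.

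Reads in H3K27ac peaks numbered 7873794, 13065208 and 13872923 in the Dex libraries, 6829787, 15109142 and 9076194 in the Cort libraries, and 7451304, 12666689 and 15695771 in the vehicle libraries. The macrophage label was checked on a list of 17 identity genes, all of which had a tested peak, with summed values of 5570 to 6240 normalised counts (CPM, reads per 1e6 reads in peaks) in Dex libraries, 5700 to 6340 in Cort libraries and 5270 to 5780 in vehicle libraries. Fibroblast, neutrophil and lymphoid genes had 6, 5 and 10 tested peaks. The summed CPM of the fibroblast list was 69.4 to 83.0 with Dex, 64.6 to 82.8 with Cort and 52.5 to 61.5 with vehicle. The lymphoid list, with peaks at 5 of 8 genes, was higher, at 167 to 220, 179 to 237 and 217 to 290 in the same order. The neutrophil list had 16.3 to 17.3, 15.4 to 17.3 and 8.11 to 14.0. Erythroid, megakaryocyte and mast cell genes had 64.8 to 97.8, 68.4 to 105 and 77.6 to 82.1. Of 8 fibroblast markers only 1 had a tested peak, Pdgfrb, and Col1a1, Col1a2, Col3a1, Pdgfra, Thy1, Lum and Dcn had none. The fibroblast sum thus rests on peaks assigned to Pdgfrb as the nearest gene. The one with the smallest p of the mean steroid response lay 819 bp outside the gene. CPM values are scaled by reads in peaks (TMM factors), so every change is relative to the other peaks.

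No peak passed the threshold between Dex and Cort. Of 59881 peaks, 0 (0.0%) reached an adjusted p under 0.05 in edgeR's quasi-likelihood test with Benjamini-Hochberg adjustment, fitted over all 12 H3K27ac libraries with the replicate number as a block. At an unadjusted p under 0.05, 1168 peaks (1.95%) were above and 1125 (1.88%) below with Dex, together 3.83% of peaks. DESeq2 on the same design called 1 peak. The same fit called 5937 peaks higher (9.91%) and 6194 lower (10.3%) with Dex than with vehicle, and 3858 higher (6.44%) and 3673 lower (6.13%) with Cort than with vehicle. These comparisons share the vehicle libraries, and their unequal counts are no test of a difference between the steroids. Without Dex replicate 3 the Dex count was 7794 in both directions, against 12131 (20.3%) with all libraries, and without vehicle replicate 3 it was 7742. The Cort count of 7531 (12.6%) became 4345 without Cort replicate 1, 4082 without Cort replicate 3 and 3855 without vehicle replicate 3.

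The absence of calls does not show that the steroids acted alike, and the 95% intervals give what size of difference remained possible. The interval of Dex minus Cort lay within 1 log2 unit on both sides of 0 for 71.9% of peaks and within 0.5 log2 units for 34.1%. Its median half-width was 0.49 log2 units. The fitted difference was beyond 1 log2 unit in either direction at 822 peaks (1.37%).

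The size of the response was then compared at peaks where the steroids as a pair moved the mark. Peaks were chosen by the mean of the Dex and Cort responses against vehicle, which weights both steroids equally and so favours neither. That mean rose at 6282 peaks (10.5%) and fell at 6892 (11.5%), together 22.0% of tested peaks. Over the raised peaks the median log2 change was 0.73 with Dex and 0.62 with Cort, and the median of the Dex minus Cort difference was 0.10, with quartiles of 0.01 and 0.22. Dex was above Cort at 76.9% of raised peaks, beside 50.05% of all tested peaks. Over the lowered peaks the median change was -0.81 with Dex and -0.66 with Cort, the median difference was -0.15, and Dex was below Cort at 79.8%. Dex values thus lay farther from vehicle than Cort values in both directions, by a median that is small beside the interval of a single peak.

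Each replicate pair gave the same sign. The median difference over raised peaks was 0.07 in pair 1, 0.07 in pair 2 and 0.12 in pair 3, and over lowered peaks it was -0.12, -0.19 and -0.13. All 3 pairs had the higher value with Dex at 1888 raised peaks (30.1%), and the lower value with Dex at 295 (4.70%). Among all tested peaks these shares were 13.4% and 13.9%. At lowered peaks all 3 pairs were lower with Dex at 2316 (33.6%), and higher at 244. At an unadjusted p under 0.05, 483 raised peaks (7.69%) were above and 4 (0.064%) below with Dex. Among lowered peaks 18 (0.26%) were above and 624 (9.05%) below. Over all tested peaks these shares were 1.95% above and 1.88% below. These medians carry no test, since neighbouring peaks and peaks of one library are not independent.

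The difference grew with the size of the response. Raised peaks with a mean steroid response under 0.5 log2 units had a median Dex minus Cort difference of 0.03. It was 0.10 between 0.5 and 1, 0.22 between 1 and 2, 0.41 between 2 and 3, and 0.50 at 3 and over. The strongest bin held 38 peaks, with a median response of 3.75 with Dex and 3.27 with Cort, and 97.4% of them were above with Dex. On the lowered side the median difference was -0.10 under 0.5, -0.15 between 0.5 and 1, -0.28 between 1 and 2, and -0.55 in the 42 peaks between 2 and 3. Replicate pairs were less even there, with medians of -0.12, -0.62 and -0.21 in the last of these bins.

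**Figure D1:**
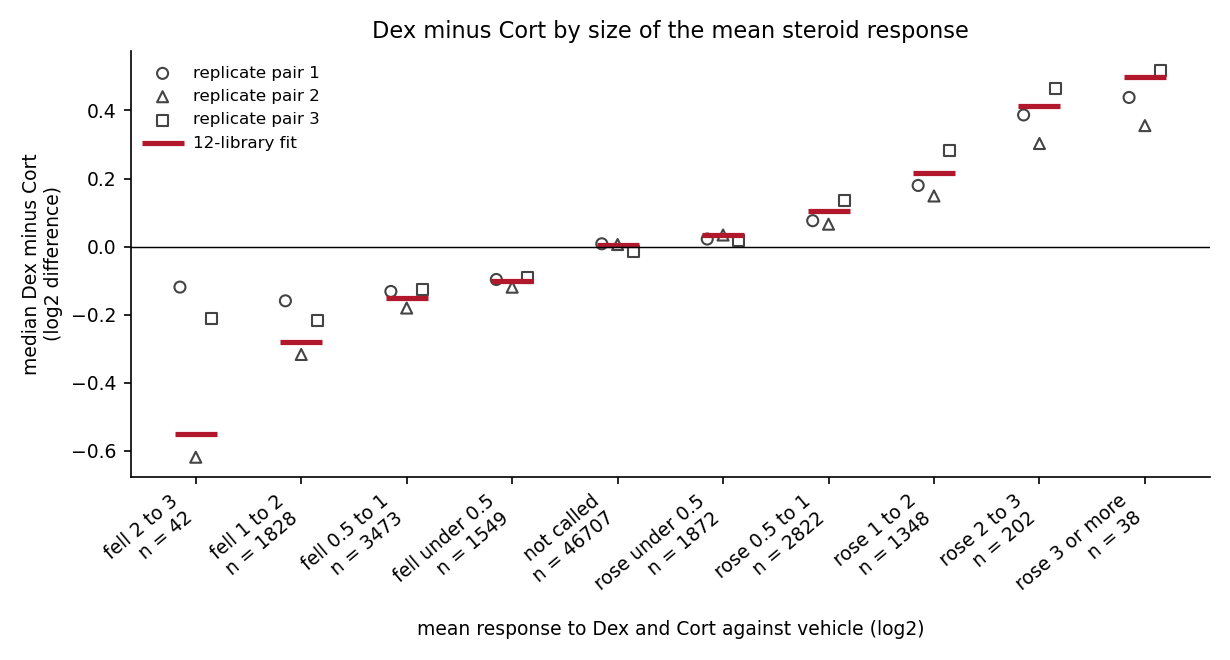
Median Dex minus Cort difference (log2, y axis) over H3K27ac peaks binned by the mean response of Dex and Cort against vehicle (log2, x axis), with peaks not called by that mean in a bin of their own. Open circles, triangles and squares are replicate pairs 1, 2 and 3 and the red bar is the value of the fit, which runs from -0.55 in the most lowered bin to 0.50 in the most raised one.

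At the 240 peaks raised by 2 log2 units or more, the fitted difference ran from -0.54 to 1.30 with a median of 0.42. The 95% interval lay wholly above 0 at 111 of them and wholly below 0 at 0 of them, and 96 differed by more than 0.5. It lay within 0.5 log2 units of 0 at 31. Over all tested peaks, 1.95% were above and 1.88% below with Dex at an unadjusted p under 0.05. The choice of peaks was also made without one replicate number and read in that number alone, an alternative chosen after the data were seen. Peaks raised by at least 2 then had a median difference of 0.38 in replicate 1, 0.26 in replicate 2 and 0.52 in replicate 3, and Dex was above Cort at 83.1%, 78.6% and 91.8% of them. The median over all raised peaks was 0.09, 0.04 and 0.19 in the same held-out replicates, so this shift was of the order of its spread between replicates. Without Cort replicate 2 the median over lowered peaks was -0.05, against -0.15 with all libraries.

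The fit of the 6 Dex and Cort libraries alone, with the same block, called 46 of 50930 peaks (0.0903%, beside 6.77% at an unadjusted p under 0.05), of which 41 were higher (0.0805%) and 5 lower (0.00982%) with Dex. Its common biological coefficient of variation was 0.0743, against 0.112 in the fit of 12 libraries, and its spread rests on 2 residual degrees of freedom before the sharing of information across peaks. It called 0 peaks without the replicate block (386 at an unadjusted p under 0.05), 11 with DESeq2, and 39, 34 and 274 peaks without replicate 1, 2 and 3 in turn, of which 26, 24 and 46 were among the 46. Of the 41 higher peaks, 40 were raised by the mean of the steroids, with median responses of 2.98 with Dex and 2.29 with Cort over the 41. The called differences ran from 0.39 to 2.30 with a median of 0.73. All 5 lower peaks were lowered by the mean of the steroids, with medians of -1.16 with Dex and -0.62 with Cort.

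The peaks with the smallest p on the higher side were in Nt5c2, Rtkn2, Cblb, Deptor and Ddit4. They were picked by that p, so their values are descriptions, and none passed the fit of 12 libraries. Nt5c2 encodes a cytosolic nucleotidase of purine metabolism. Its peak at chr19:46908276-46910114 had 16.3, 11.5 and 15.7 CPM in the Dex libraries, 6.38, 5.44 and 6.40 CPM in the Cort libraries, and 2.72, 1.47 and 1.92 CPM in the vehicle libraries. Every Dex library was above every Cort library, as at 2.59% of all tested peaks (every one below at 2.2%), and every Cort library above every vehicle library. The Dex minus Cort difference was 1.24 ± 0.20 (log2, SE, 95% interval 0.81 to 1.66, edgeR adjusted p = 0.254), and the adjusted p was 0.000373 in the fit of 6 libraries. It was the peak called by DESeq2 over 12 libraries (adjusted p = 0.0477) and by edgeR without the IL4 libraries (adjusted p = 0.0323).

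The Rtkn2 peak at chr10:68057207-68059269 had 23.1, 20.6 and 18.5 CPM with Dex, 13.7, 11.6 and 8.30 CPM with Cort, and 2.35, 1.56 and 0.992 CPM with vehicle, again with no overlap between the groups. The difference was 0.91 ± 0.17 (0.56 to 1.26, edgeR adjusted p = 0.428). Cblb encodes a ubiquitin ligase that restrains signalling from immune receptors. Its peak at chr16:52092477-52096994 had 44.9, 60.9 and 39.4 CPM with Dex, 23.0, 39.6 and 23.0 CPM with Cort, and 10.5, 9.17 and 8.31 CPM with vehicle. Cort replicate 2 was level with the lowest Dex library, while within each number the Dex library was higher. The difference was 0.76 ± 0.14 (0.46 to 1.05).

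Deptor and Ddit4 encode inhibitors of the growth kinase mTOR, and Ddit4 is a stress-induced gene long known as a target of glucocorticoids. The Deptor peak at chr15:55131491-55133466 had 27.5, 15.8 and 25.4 CPM with Dex, 17.9, 8.30 and 15.1 CPM with Cort, and 2.48, 1.39 and 1.92 CPM with vehicle. Dex replicate 2 was below Cort replicate 1, and replicate 2 was the lowest of all 3 groups, so the difference of 0.76 ± 0.15 shows within pairs. The Ddit4 peak at chr10:59946748-59953412 covers the start of the gene and had 173, 93.3 and 186 CPM with Dex, 97.8, 64.1 and 113 CPM with Cort, and 17.2, 17.7 and 14.3 CPM with vehicle. Its response was 3.14 ± 0.16 with Dex and 2.44 ± 0.16 with Cort, and their difference was 0.71 ± 0.14 (0.41 to 1.00, edgeR adjusted p = 0.466 over 12 libraries, 3.25e-05 over 6). Without Dex replicate 2 it was the peak called in the fit of 12 libraries, at 0.89 with an adjusted p of 0.035.

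**Figure D2:**
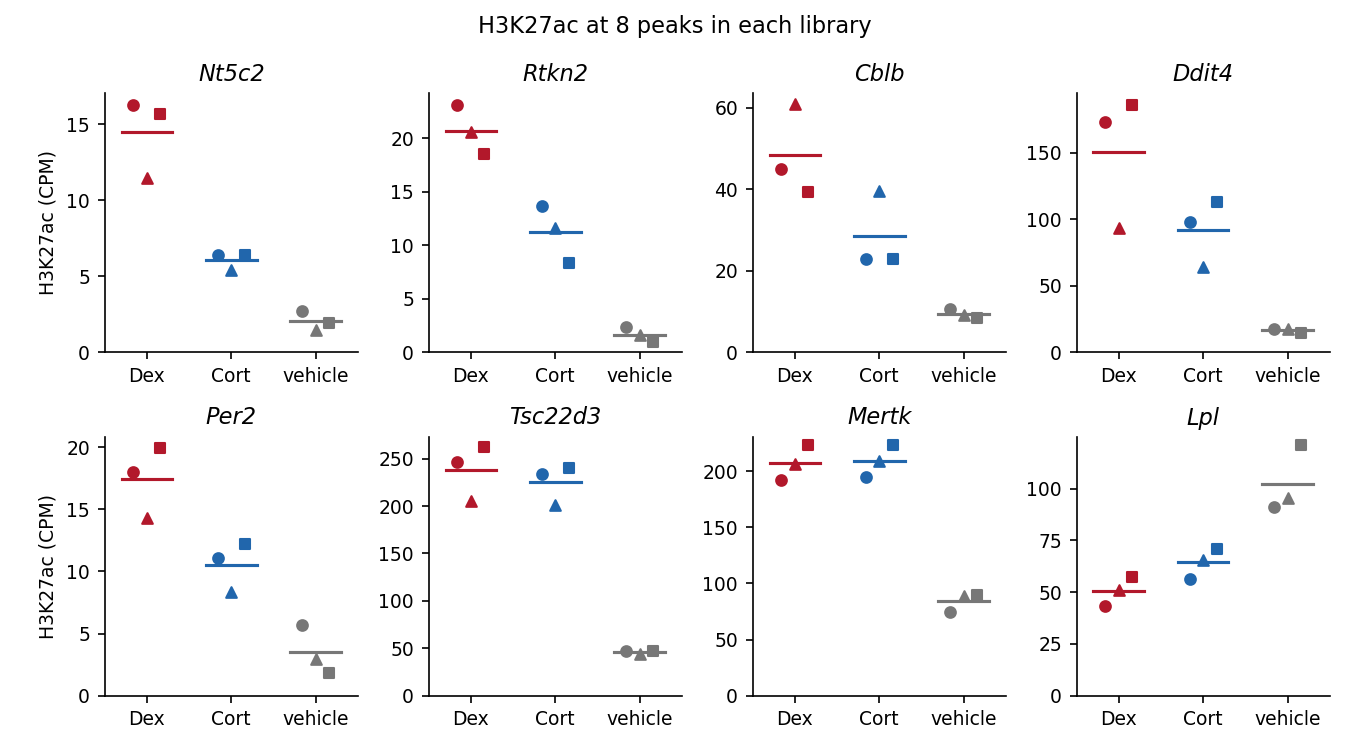
Normalised H3K27ac counts (CPM, y axis, one scale per panel) at 8 peaks, with Dex, Cort and vehicle libraries from left to right. Circles, triangles and squares are replicates 1, 2 and 3 and lines are group means. Dex lay above Cort in every pair at Nt5c2, Rtkn2, Cblb, Ddit4, Per2 and Tsc22d3 and below it in every pair at Lpl, and at Mertk the Dex and Cort values overlap.

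Of the 41 higher peaks 3 lay within 1 kb of a gene start and 2 of these covered one, at Ddit4 and at an internal start of Ube2h, which encodes a ubiquitin-conjugating enzyme. Both are shown with their promoters. Tsc22d3, the classical glucocorticoid target GILZ, is set beside them as a start with a large response to both steroids and a small difference. Ube2h and Tsc22d3 were chosen after their values were seen. The lines give the 250 bases upstream of each start (RefSeq, GRCm38.p6, minus strand, 5′ to 3′), at chr10:59951771-59952020, chr6:30243804-30244053 and chrX:140542669-140542918. Capitals mark AGAACA or its complement TGTTCT, the hexamer that GR binds in pairs, searched on either strand. The spaced palindrome ACANNNTGT was searched too and is in none of the 3.
Ddit4: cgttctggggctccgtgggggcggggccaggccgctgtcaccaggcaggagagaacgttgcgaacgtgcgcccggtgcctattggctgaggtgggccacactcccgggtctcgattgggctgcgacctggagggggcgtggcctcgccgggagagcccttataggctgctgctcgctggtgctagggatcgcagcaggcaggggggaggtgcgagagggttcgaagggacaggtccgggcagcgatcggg
Ube2h: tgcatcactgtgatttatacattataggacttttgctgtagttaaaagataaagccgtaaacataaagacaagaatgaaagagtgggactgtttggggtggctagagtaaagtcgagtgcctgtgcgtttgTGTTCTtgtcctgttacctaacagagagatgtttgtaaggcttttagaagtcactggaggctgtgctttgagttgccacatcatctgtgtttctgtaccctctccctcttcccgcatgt
Tsc22d3: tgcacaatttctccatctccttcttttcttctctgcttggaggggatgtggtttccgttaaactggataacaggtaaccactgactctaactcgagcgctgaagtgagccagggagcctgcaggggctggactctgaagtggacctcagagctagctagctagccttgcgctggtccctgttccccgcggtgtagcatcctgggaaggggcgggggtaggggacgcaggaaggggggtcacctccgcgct

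The hexamer is in 16.1% and the palindrome in 5.84% of 32841 such windows, and a match is a description of the letters. The peak at the internal Ube2h start, chr6:30242507-30244695, had 19.7, 17.0 and 21.2 CPM with Dex, 14.6, 10.5 and 12 CPM with Cort, and 7.43, 4.10 and 5.64 CPM with vehicle, and its difference was 0.66 ± 0.16 (0.32 to 1.00). It overlaps 2 GR peaks, whereas the Ddit4 start peak overlaps none. The peak at the outer Ube2h start, chr6:30302728-30304674, was not called by the mean of the steroids, differed by 0.21 (-0.09 to 0.52), and the 250 bases before that start hold neither motif. The Tsc22d3 start peak at chrX:140536577-140544600 had 253, 213 and 260.0 CPM with Dex, 224, 189 and 247 CPM with Cort, and 77.4, 75.4 and 79.8 CPM with vehicle. Both steroids brought it to about the same level, with a difference of 0.14 ± 0.09 (-0.05 to 0.32). A peak at a farther upstream Tsc22d3 start, chrX:140547268-140549044, was raised less and differed by 0.21 (-0.18 to 0.59).

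The region upstream of Ddit4 held further raised peaks. A peak at chr10:59969317-59971359, nearest by span to Anapc16, which encodes a subunit of the anaphase-promoting complex, had 53.2, 29.5 and 50.0 CPM with Dex, 29.2, 22.4 and 35.0 CPM with Cort, and 3.22, 1.64 and 1.18 CPM with vehicle. Its difference was 0.59 ± 0.16 (0.26 to 0.91), with responses of 4.55 to Dex and 3.97 to Cort. The peak at chr10:59966427-59969109 differed by 0.49 ± 0.18 (0.11 to 0.87). These peaks share one neighbourhood and are not independent of the start peak.

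On the lower side the smallest p was at chr17:31002689-31006664 in Umodl1, with 24.8, 35.1 and 38.9 CPM with Dex, 34.9, 59.3 and 49.2 CPM with Cort, and 53.4, 90.5 and 77.5 CPM with vehicle. Cort stood between Dex and vehicle in every replicate number, and the difference was -0.53 ± 0.11 (-0.75 to -0.31, edgeR adjusted p = 0.466 over 12 libraries, 0.0223 over 6). A peak at chrX:70897208-70899496, with no gene within 50 kb, had 6.73, 4.90 and 9.14 CPM with Dex, 12.8, 8.57 and 14.5 CPM with Cort, and 15.8, 8.85 and 19.7 CPM with vehicle. It fell with Dex, by 1.07 ± 0.16 log2 units (edgeR adjusted p = 2.7e-05), while the Cort change of -0.28 did not pass (adjusted p = 0.26), and the difference itself was -0.79 ± 0.16. A peak at chr5:141054745-141057218, also with no gene within 50 kb, differed by -0.62 ± 0.13. These 3 were called lower over 6 libraries, as were a peak near Acta1, at -0.46 ± 0.13 over 12 libraries, and one near Sit1, at -0.41 ± 0.10. The Klri1 peak, in a lectin-like receptor gene of natural killer cells, and a peak on chromosome 1 were picked by their small p over 12 libraries, were called in neither fit, and differed by -0.53 ± 0.13 and -0.65 ± 0.15.

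The peaks with the highest mean response gave the clearest view of scale. The highest was at chr19:23055641-23058868, with no gene within 50 kb. It had 84.7, 82.2 and 85.0 CPM with Dex, 62.5, 57.0 and 54.9 CPM with Cort, and 3.71, 2.38 and 0.93 CPM with vehicle, responses of 5.32 ± 0.24 and 4.78 ± 0.24 and a difference of 0.54 ± 0.17 (0.19 to 0.89). The peak near Armc12 had responses of 4.76 with Dex and 4.58 with Cort and a difference of 0.18 ± 0.14. Zbtb16, which encodes the transcription factor PLZF, held a peak with responses of 4.37 and 4.13. All 14 of its raised peaks had the higher fitted value with Dex, with differences of 0.10 to 0.70 and a median of 0.36. That sign was found at 76.9% of all raised peaks and at 97.5% of those raised by 2 to 3 log2 units. At some of the 14, not all 3 pairs were higher with Dex. The Mctp2 peak at chr7:72161397-72164061 had 22.6, 40.4 and 23.9 CPM with Dex, 12.6, 22.9 and 10.9 CPM with Cort, and 3.22, 1.72 and 0.496 CPM with vehicle, a difference of 0.93 ± 0.22. The Ube2s peak, near a ubiquitin-conjugating enzyme of cell division, differed by 0.76 ± 0.19. All 3 pairs were higher with Dex at each of the highest peaks, beside 78.95% of peaks raised by 3 log2 units or more and 13.4% of all tested peaks.

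**Figure D3:**
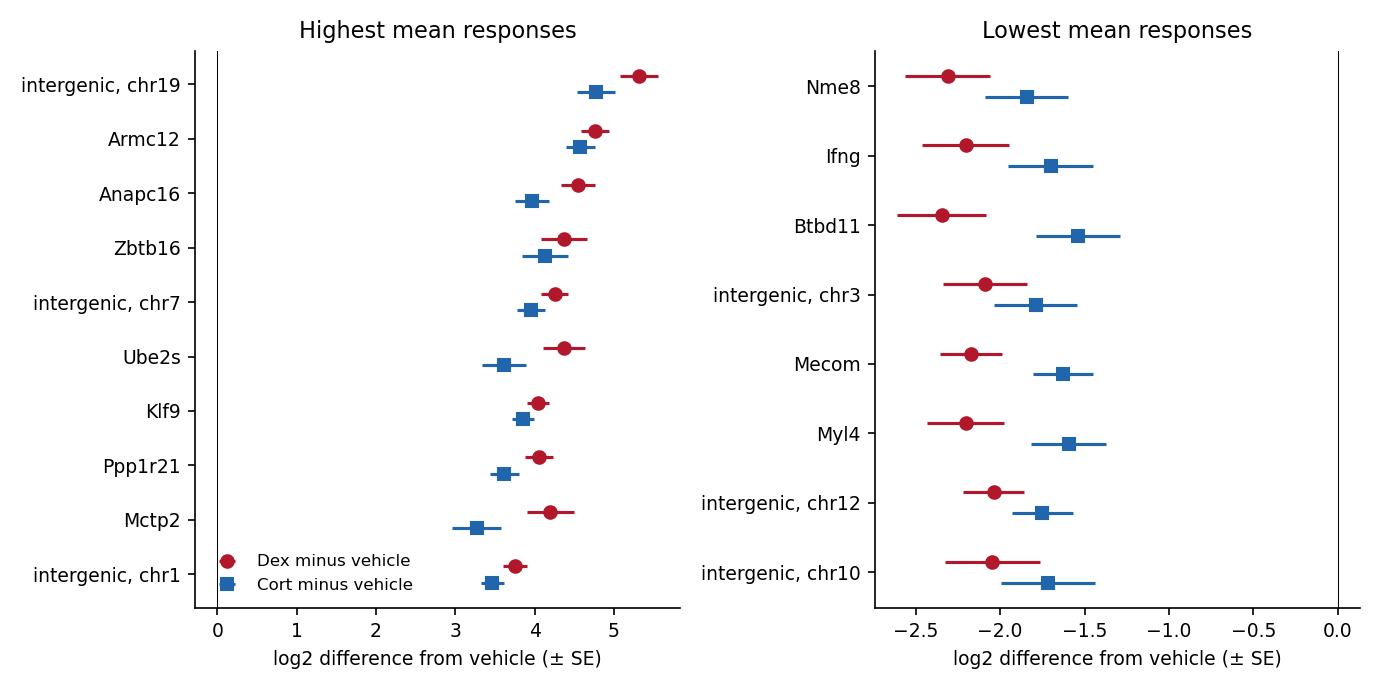
Log2 change against vehicle (x axis, error bars are SE of the fit) with Dex and with Cort at peaks with the highest and lowest mean response. Dex lies farther from vehicle at every peak drawn, by 0.18 log2 units at Armc12 and 0.93 at Mctp2 on the raised side.

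Among the lowest mean responses, the peak at chr3:29990565-29993819 in Mecom, which encodes a transcription factor, had 8.32, 16 and 8.33 CPM with Dex, 10.9, 25.9 and 11.2 CPM with Cort, and 33.1, 63.6 and 47.0 CPM with vehicle. Dex was below Cort in each pair. Every vehicle library was above every steroid library, as the rule that picked these lowest peaks required. Its responses were -2.17 with Dex and -1.63 with Cort, and the difference was -0.54 ± 0.19 (-0.94 to -0.14). Fitted differences were -0.61 ± 0.26 at Myl4, a myosin light chain gene, and -0.50 ± 0.30 at a peak 48.8 kb from Ifng, the gene of interferon gamma. Pairs were less even than at the highest peaks. At 4 of the 10 lowest, Nme8 and 3 with no gene within 50 kb, Dex was above Cort in pair 1, by 0.16 to 0.66.

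The peaks of gene lists ordered by role were read the same way, through the mean of the steroids. In every list 0 peaks were called between Dex and Cort, beside 0.0% of all peaks. The glucocorticoid-induced list had 204 tested peaks at 29 of its 30 genes. By the mean of the steroids 99 peaks rose and 20 fell, beside 10.5% and 11.5% of all tested peaks. The Dex minus Cort median over the 99 was 0.18, with 88 of 99 above 0, beside 0.10 and 76.9% over all raised peaks. The 20 lowered peaks of the list had a median of 0.03, with Dex below Cort at 8, beside 79.8% below and -0.15 over all lowered peaks. At the Klf9 peak at chr19:23132836-23136994, near a zinc-finger repressor gene, values were 165, 124 and 154 CPM with Dex, 144, 95.9 and 152 CPM with Cort, and 13.1, 7.70 and 7.07 CPM with vehicle. The difference was 0.19 ± 0.11 (-0.05 to 0.42) on responses of 4.04 and 3.85. At the Tsc22d3 peak at chrX:140503569-140515614 the values were 247, 205 and 262 CPM with Dex, 234, 201 and 240.0 CPM with Cort, and 47.2, 44.4 and 46.8 CPM with vehicle. The difference there was 0.08 ± 0.08 (-0.09 to 0.24), an interval that lies within 0.5 log2 units.

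Fkbp5 encodes a chaperone that lowers the affinity of GR for its ligands. Its peak at chr17:28406715-28411358 had 90.4, 58.5 and 92.0 CPM with Dex, 79.5, 55.8 and 70.0 CPM with Cort, and 17.3, 11.7 and 14.4 CPM with vehicle, and differed by 0.22 ± 0.10 (0.01 to 0.43). Cd163 encodes the haptoglobin-haemoglobin scavenger receptor. Its leading peak at chr6:124277633-124281022 had 80.7, 92.4 and 81.7 CPM with Dex, 82.5, 92.3 and 72.3 CPM with Cort, and 9.91, 8.76 and 7.07 CPM with vehicle, a difference of 0.05 ± 0.10 (-0.17 to 0.27) whose sign turned without Dex replicate 3. The 11 raised Cd163 peaks differed by 0.05 to 0.80 and the 15 raised Fkbp5 peaks by -0.13 to 1.79, with medians of 0.23 and 0.16. The highest of each came from peaks with few reads. That of Fkbp5 had 1.84, 2.57 and 2.05 CPM with Dex and 0.85, 0.558 and 0.561 CPM with Cort, with an SE of 0.42. That of Cd163 had 1.35, 1.53 and 1.39 CPM with Dex and 0.709, 0.837 and 0.898 CPM with Cort, with an interval of -0.09 to 1.69. Whether peaks of a locus differ from one another was not tested.

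The list of the receptor and its cofactors had 8 raised and 18 lowered peaks among 154, beside 10.5% and 11.5% of all peaks. Nr3c1 encodes GR itself. Its leading peak had 5.26, 11.1 and 5.26 CPM with Dex, 7.51, 12.2 and 7.18 CPM with Cort, and 13.6, 21.0 and 16.4 CPM with vehicle, and the difference was -0.34 ± 0.18 (-0.70 to 0.03). The peak in Ncoa1, which encodes a coactivator, fell with both steroids and differed by -0.53 ± 0.25. Dex was above Cort at 7 of the 8 raised peaks, beside 76.9% of all raised peaks. At 15 of the 18 lowered peaks Dex was below Cort, with a median of -0.21, beside 79.8% below and a median of -0.15 over all lowered peaks.

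Circadian genes had 12 raised and 9 lowered peaks among 86, beside 10.5% and 11.5% of all peaks. Dex was above Cort at all 12 raised ones, with a median of 0.24, beside 76.9% of all raised peaks, and below it at 6 of the 9 lowered ones, beside 79.8%. Per2 encodes a repressor of the clock. Its peak at chr1:91435879-91438725 had 18.0, 14.3 and 19.9 CPM with Dex, 11.1, 8.30 and 12.2 CPM with Cort, and 5.70, 2.95 and 1.80 CPM with vehicle. The Dex and Cort libraries did not overlap, and the difference was 0.73 ± 0.21 (0.30 to 1.17, edgeR adjusted p = 1 over 12 libraries, 0.0168 over 6), with responses of 2.44 and 1.70. Its relative Per1 had 225, 289 and 208 CPM with Dex, 218, 228 and 220.0 CPM with Cort, and 100.0, 101 and 82.2 CPM with vehicle at its start, a difference of 0.11 ± 0.09 (-0.08 to 0.30) with overlapping libraries. Nfil3, a repressor of the clock output, differed by 0.26 ± 0.14. At the peak near Arntl, which encodes the activator BMAL, replicate 2 was the highest of every group, and the difference of -0.18 ± 0.26 turned its sign without Dex replicate 3 or Cort replicate 2.

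KLF and bZIP regulators had 36 raised and 8 lowered peaks among 173, beside 10.5% and 11.5% of all peaks. The raised ones had a median difference of 0.18, beside 0.10 over all raised peaks. Of them 33 of 36 were above 0, beside 76.9%, and 7 of 8 lowered ones were below 0, beside 79.8%. Klf13 had 107, 107 and 120.0 CPM with Dex, 101, 97.2 and 102 CPM with Cort, and 19.6, 12 and 13.6 CPM with vehicle. Its difference of 0.16 ± 0.11 (-0.08 to 0.39) is small beside responses of 2.92 and 2.77. The peak near Fos differed by 0.07 ± 0.12 and that near Klf6 by -0.29 ± 0.23.

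Phagocytosis and scavenger genes had 47 raised and 14 lowered peaks among 188, beside 10.5% and 11.5% of all peaks. The raised ones had a median difference of 0.06, with 35 above 0, beside 0.10 and 76.9% over all raised peaks. Of the lowered ones 12 were below 0, beside 79.8% of all lowered peaks. Mertk encodes a receptor for apoptotic cells. Its peak at chr2:128743557-128754460 had 192, 206 and 223 CPM with Dex, 195, 209 and 223 CPM with Cort, and 74.5, 89.0 and 89.9 CPM with vehicle. The response was 1.29 ± 0.09 with Dex and 1.30 ± 0.09 with Cort, and the difference was -0.01 ± 0.08 with an interval of -0.18 to 0.16. Of its 14 raised peaks 7 were above 0. The peak in Fcgr3, an immunoglobulin receptor gene, differed by 0.06 ± 0.08 (-0.11 to 0.23).

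Inflammatory genes had 18 raised and 6 lowered peaks among 159 tested, and interferon-response genes 1 raised and 5 lowered among 60, beside 10.5% raised and 11.5% lowered of all peaks. Differences were 0.06 ± 0.08 at Nlrp3, an inflammasome gene, -0.01 ± 0.13 near the chemokine gene Ccl3, -0.04 ± 0.18 at the RNA sensor gene Ifih1 and -0.36 ± 0.23 at Usp18, which encodes a protease of the interferon response. Dex was below Cort at all 6 lowered inflammatory peaks and all 5 lowered interferon peaks, beside 79.8% of all lowered peaks, and above it at 11 of the 18 raised inflammatory peaks, beside 76.9%. Genes induced by IL4 had 32 raised and 9 lowered peaks among 171, beside the same shares of all peaks, 10.5% and 11.5%. Dex was above Cort at 24 of the raised ones, with a median of 0.10, beside 76.9% and 0.10 over all raised peaks. It was below Cort at all 9 lowered ones, beside 79.8%. Among them the Chil3 peak at chr3:106170194-106171454 had 12.8, 7.40 and 9.80 CPM with Dex, 9.92, 5.79 and 5.72 CPM with Cort, and 2.72, 1.31 and 0.682 CPM with vehicle, a difference of 0.52 ± 0.20 (0.09 to 0.94).

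Lipid genes had 21 raised and 29 lowered peaks among 183, beside 10.5% and 11.5% of all peaks. On the lowered side 26 were below 0 with a median of -0.28, beside 79.8% and -0.15 over all lowered peaks. On the raised side 15 were above 0 with a median of 0.05, beside 76.9% and 0.10. Lpl encodes the lipase that frees fatty acids from lipoproteins. Its peak at chr8:68879520-68890067 had 43.2, 51.1 and 57.4 CPM with Dex, 56.3, 65.7 and 70.9 CPM with Cort, and 91.0, 95.2 and 121 CPM with vehicle. Every vehicle library was above every steroid library, and Cort lay above Dex in each pair, with a difference of -0.35 ± 0.09 (-0.53 to -0.17, edgeR adjusted p = 0.963). The fatty acid carrier gene Fabp4, by contrast, rose with both steroids and differed by 0.17 ± 0.13. Tissue remodelling genes had 15 raised and 17 lowered peaks among 109, beside 10.5% and 11.5% of all peaks. Of these, 12 raised ones were above 0 and 15 lowered ones below 0, beside 76.9% and 79.8%. F13a1, which encodes a subunit of a clotting transglutaminase, had a peak that differed by 0.21 ± 0.12.

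Macrophage identity genes had 19 raised and 11 lowered peaks among 157, beside 10.5% and 11.5% of all peaks. The raised ones had a median of -0.02 with 9 above 0, beside 0.10 and 76.9% over all raised peaks. Of the lowered ones 9 were below 0, beside 79.8% of all lowered peaks. Differences were -0.08 ± 0.11 at Runx1 and -0.02 ± 0.12 at Cebpa, both transcription factors of myeloid cells. Among markers of other cells, the dendritic list had 4 raised and 7 lowered peaks among 32, beside 10.5% and 11.5% of all peaks. Dex was above Cort at 3 of the raised ones, with a median of 0.25, beside 76.9% and 0.10 over all raised peaks. It was below Cort at 5 of the lowered ones, with a median of -0.04, beside 79.8% and -0.15 over all lowered peaks. The leading peak of the list, in the growth factor receptor gene Flt3, had 21.7, 9.33 and 21.6 CPM with Dex, 13.5, 8.64 and 14.7 CPM with Cort, and 1.73, 1.64 and 1.36 CPM with vehicle, a difference of 0.48 ± 0.19. The Xcr1 peak of the same list fell, with responses of -1.03 with Dex and -1.01 with Cort, and differed by -0.02 ± 0.16. The summed CPM of the dendritic list was 307 to 326 with Dex, 296 to 365 with Cort and 291 to 417 with vehicle, and its part in any result was not tested.

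**Figure D4:**
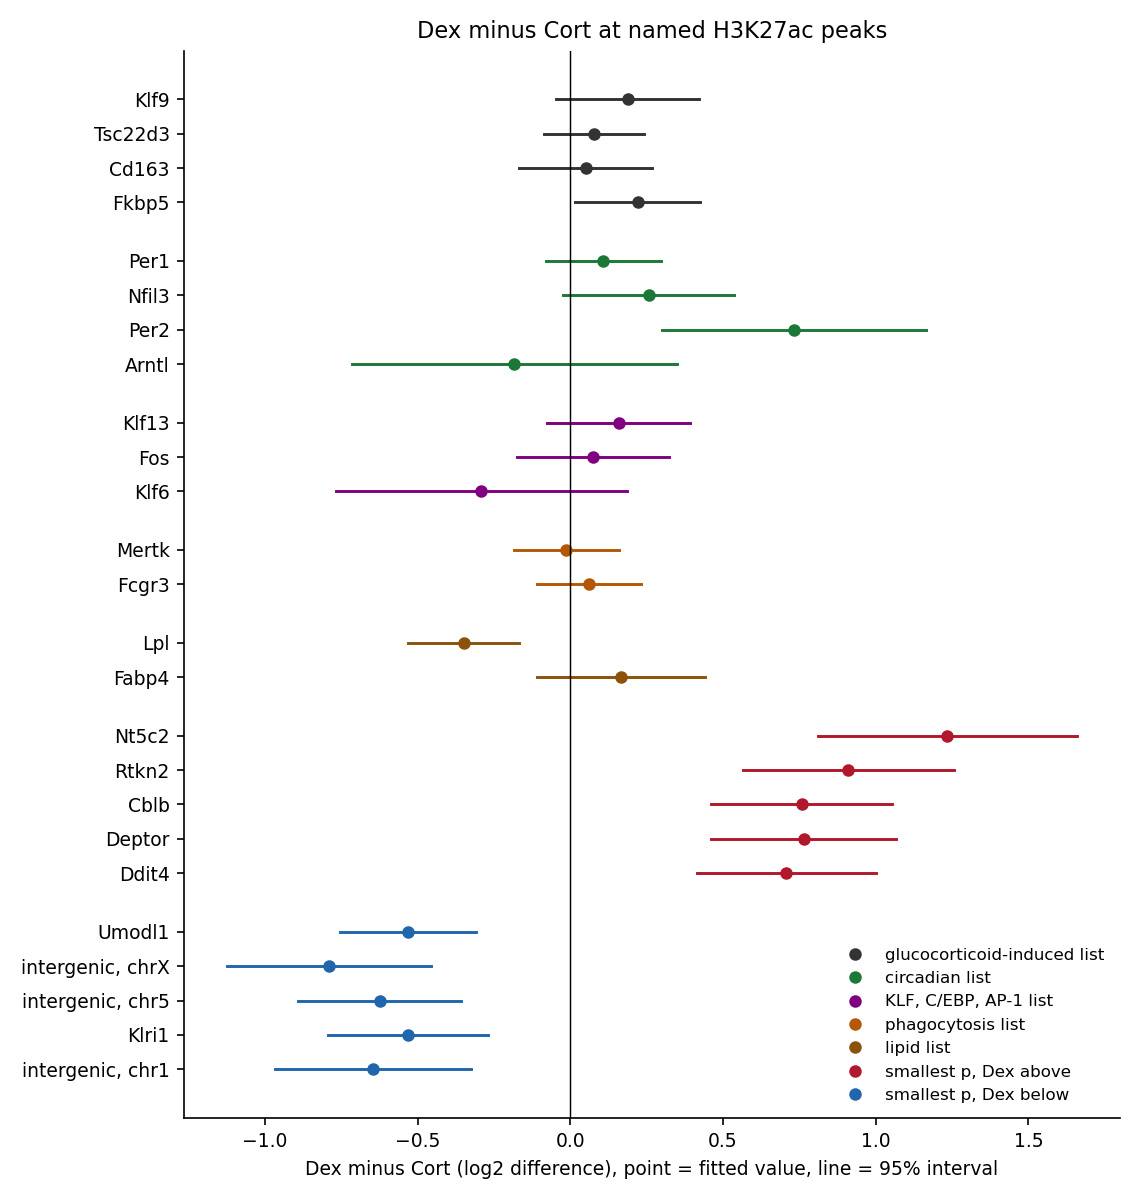
Dex minus Cort difference (log2, x axis) with its 95% interval at 25 H3K27ac peaks, grouped as 5 gene lists (chosen by response to both steroids) and the smallest p above and below (chosen by this difference). Intervals of Mertk and Tsc22d3 are short and cover 0, those of Per2 and Fkbp5 lie above 0 and that of Lpl lies below it.

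By place, the median difference over raised peaks was 0.06 at gene starts, 0.10 inside genes and 0.11 outside them, on median mean responses of 0.43, 0.69 and 0.78. At raised gene starts the pairs gave 0.06, 0.07 and -0.0014, beside 0.04, 0.04 and -0.08 over all tested start peaks. Pair 3 was thus near 0 at raised starts, where start peaks as a class lay below 0 in that pair. Over lowered peaks the medians by place were -0.12, -0.14 and -0.18. A GR peak of the same series was present in 6.52% of all tested H3K27ac peaks, 23.7% of raised ones and 50.0% of those raised by at least 2. It was present in 35 of the 41 peaks called higher with Dex over 6 libraries (85.4%). Of the 5 called lower 0 had one, beside 4.25% of all lowered peaks. Among raised peaks the median difference was 0.09 with a GR peak and 0.10 without one, and between 2 and 3 log2 units of response it was 0.42 and 0.40. Raised peaks with a GR peak were also more abundant, with a median of 5.15 log2 CPM against 3.21 without one, and the part of abundance in the calls was not tested. In 4 equal classes of abundance from low to high, the median over raised peaks was 0.26, 0.18, 0.13 and 0.06, on median mean responses of 1.42, 0.93, 0.70 and 0.46 that fell alongside.

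GR occupancy itself was compared between 4 Dex and 4 Cort libraries in a fit of all 15 GR libraries with batch as a term. It differed at 0 of 5183 GR peaks (0.0%) at an adjusted p under 0.05, and at 468 (9.03%) unadjusted. In every GR library 1 peak held a large share of the reads in peaks, from 45.4% in Cort replicate 4 to 59.2% in vehicle replicate 4. Over the 1565 GR peaks inside raised H3K27ac peaks the median GR difference was 0.11, beside -0.01 over all GR peaks, with a median SE of 0.39 for a single peak. At the GR peak in the Cblb region, chr16:52094667-52095008, GR values were 71.5, 53.3, 37.5 and 54.4 CPM with Dex, 30.1, 45.3, 15.8 and 20.8 CPM with Cort, and 5.66, 5.57, 5.72 and 9.05 CPM with vehicle. The GR difference there was 0.99 ± 0.33 (edgeR adjusted p = 0.52), and 1 Cort library reached into the Dex range. At Nt5c2 it was 1.18 ± 0.50 and at Rtkn2 0.52 ± 0.26, neither past the threshold. It was 0.16 ± 0.32 at Deptor and -0.01 ± 0.44 at Ube2s, where the H3K27ac difference was 0.76 as at Cblb. At the GR peaks in the Mertk region it was 0.32 ± 0.31 and 0.14 ± 0.26.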

How the data were processed

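The authors deposited raw counts of reads for one shared set of H3K27ac peaks and one of GR peaks. The submitters' processing notes name mm10 and, without versions, Bowtie2, featureCounts, fastp, MACS2 and SAMtools. How peaks were merged is not stated, and neither is the criterion of a deposited column that marks 33835 H3K27ac peaks TRUE. Columns headed C were matched to vehicle by elimination. The 1 input library was not analysed here.

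Counts were fitted in R 4.3.3 with edgeR 4.0.16 (filterByExpr by group, TMM factors, quasi-likelihood F test) over 12 libraries with the replicate number as a block, and adjusted by Benjamini-Hochberg over all tested peaks. The replicate numbers pair the libraries, a reading that comes from the data: the 18 residual correlations between libraries of equal number were 0.268 to 0.678, and the other 36 were -0.449 to 0.0406. Residuals were taken from the group means and sum to 0 in each group. Positive values among the 18 therefore push the 36 below 0, and the 36 are no separate evidence. A standard error is the absolute log2 difference over the square root of F, and intervals are at 95%. CPM values use TMM-scaled library sizes. Peaks went to the nearest of 19942 named protein-coding genes (RefSeq, GRCm38.p6) within 50 kb of its span, and a start peak lies within 1 kb of a start. A GR overlap is at least 1 bp (GenomicRanges 1.54.1).

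The comparison, the lists and the rules for named peaks were chosen with earlier results of these data known. Named were, per list, up to 4 genes with the smallest p of the mean steroid response; the 10 highest and 10 lowest mean responses; and the 5 smallest p higher and lower with Dex than Cort, each at or above median abundance. The text and figures give a part of these, and some are not reported here; names outside the rule were chosen after their values were seen. Alternatives were no block, other scalings, no filter, other sets of libraries, each library left out, and DESeq2 1.42.0. Held-out peak choice, peaks marked TRUE and all variations on the 6-library fit were chosen after the data were seen. Sequence was taken only from RefSeq promoter windows, and peak sequences were not read here.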

Additional observations from a re-analysis of the deposited data

Results flagged for a closer look

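GR counts in peaks were 1904442 in Dex replicate 4, against 1185798, 1208021 and 1289013 in the other Dex libraries, a gap larger than Dixon's 95% limit for 4 samples. Of these counts 1 peak held 57% in Dex replicate 4 and 54.9%, 52.7% and 55.2% in the others. At the GR peak in the Cblb region, vehicle replicate 4 had 9.05 CPM, against 5.57 to 5.72 CPM in the other vehicle libraries. Chance alone flags about 1 in 20 groups of this size. H3K27ac groups hold 3 libraries and were not examined in this way.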

How the results depend on the processing

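The count of 0 peaks between Dex and Cort held without the replicate block, under the other scalings, without a filter, and over peaks marked TRUE. It was 1 without the IL4 libraries and 1 with DESeq2, 46 with Dex and Cort libraries only, 45 with these and median-of-ratios scaling, and 11 with these and DESeq2. Leaving out libraries gave 0 to 1 over 12 libraries, and 34 to 274 (39 without replicate 1) over 6. The cause was not tested. Without the replicate block, Dex against vehicle gave 3138 calls and Cort against vehicle 929, the raised median was 0.157, the lowered median -0.221 and the share of intervals within 1 log2 unit 60.7%. Leaving out 1 library gave 7742 to 11880 calls for Dex, 3855 to 8203 for Cort, medians of 0.0656 to 0.143 (raised) and -0.213 to -0.0493 (lowered), and shares of 59.2% to 70.2%. At a response of at least 1 log2 unit the medians were 0.237 and -0.282. Peaks chosen without a replicate number and read in it gave raised medians of 0.0364 (number 2) and 0.192 (number 3).

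For 57 peaks, 983 of 1020 alternative values kept their direction and side of the threshold, 17 passed it and 20 turned sign, at 12 peaks. Leaving out 1 library gave -0.0272 to 0.147 at Cd163, -0.0105 to 0.181 at Per1, -0.623 to 0.275 at Arntl, -0.125 to 0.191 at Fos, -0.507 to 0.19 at Klf6, -0.0254 to 0.00578 at Mertk and -0.035 to 0.138 at Nlrp3. The ranges were -0.0585 to 0.0659 at Ccl3, which was at 0.00016 over peaks marked TRUE, -0.125 to 0.0886 at Ifih1, -0.219 to 0.0508 at Runx1, -0.139 to 0.0891 at Cebpa and -0.77 to 0.339 at a lowered peak on chromosome 10.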
